A study of Mus musculus with 36 samples.

Results

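Sleep deprivation in the liver of AKR/J mice was described from 6 arrays of the 36 in the series, selected by the tissue, strain and condition in their titles. AKR/J is an inbred laboratory strain, and no transgene, induced allele or drug is named for any group. The sleep-deprived group held 3 arrays from male AKR/J mice, 12 to 13 weeks old, that were kept awake for 6 h from light onset (Zeitgeber time, ZT, 0) and killed at ZT 6. The control group held 3 arrays from AKR/J males of the same age that stayed in their home cages and, by their titles, were killed at ZT 6 as well. All animals had free access to food and water under a light/dark cycle. Each array carried labelled RNA from a pool of 3 mice, so the spread between arrays is that between pools and not between single mice. The same design in liver of C57BL/6J and DBA/2J males and in whole brain of AKR/J males, again with 3 pools a group, served for comparison. Values are log2 RMA values (robust multi-array average, a background-corrected and normalised summary of the probes of a gene), so that a difference of 1 is a 2-fold change.

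Cells respond to unfolded protein with separate gene programmes in the cytosol and in the endoplasmic reticulum (ER). In the cytosol, heat shock factor 1 binds heat shock elements and raises the HSP70, HSP90 and HSP40 chaperones and their helpers. In the ER, where the hepatocyte folds the plasma proteins that it secretes, the sensors ATF6, IRE1 and PERK raise chaperones such as Hspa5 (BiP), and ATF6 with NF-Y binds the ER stress element of their promoters. The liver is also a main target of the glucocorticoids that rise with stress, and of feeding, fasting and body temperature. Loss of sleep is known to raise Hspa5 in the rodent brain.

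The labels of the controls conflict. The title of every control array gives ZT 6, but the source name of control pools 2 and 3 gives ZT 0, and only control pool 1 carries ZT 6 in both fields. The design text of the series puts all controls at ZT 6. All 3 were kept. In counts given without pools 2 and 3, control pool 1 stands alone and is assumed to vary like the other groups. Correlations of the AKR/J liver arrays over all probe sets were 0.993 to 0.995 within a group and 0.991 to 0.994 between the groups. The 10 hepatocyte markers gave a summed level of 17.08 to 17.12 in sleep-deprived pools and 17.05 to 17.11 in control pools. The 3′ to 5′ difference of the beta-actin probe sets, a sign of RNA quality, ranged from 1.10 to 1.45 on the log2 scale over the 6 arrays. Over all liver arrays, DBA/2J control pool 1 stood apart at 2.16, against 0.96 to 1.45 on the rest. It was kept and enters the liver fits unless stated. In bulk tissue, fewer cells of a type and less RNA per cell cannot be told apart. Where groups are said below to be separate or not to overlap, this describes the pools. The share of all genes with separate groups was not counted.

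Among genes that passed the test, chaperones of the cytosol and of the ER had the largest rises in sleep-deprived AKR/J liver, and the cold-inducible RNA-binding protein Cirbp had the largest fall. Of 45037 probe sets, 320 (0.711%) passed an adjusted p of 0.05 in limma, 203 higher and 117 lower. By the representative probe set of each of 18193 genes, 103 genes (0.566%) were higher and 84 (0.462%) were lower. The median change over all genes was -0.01. The sizes of the 103 rises ran from 0.38 to 2.33 with a median of 0.67, and 20 of them were at least 1. The 84 falls ran in size from 0.37 to 1.87 with a median of 0.61, and 6 of them were at least 1. The count of 320 was 211 without sleep-deprived pool 1, 149 without pool 2 and 289 without pool 3. It was 201, 163 and 189 without control pool 1, 2 and 3 in turn. Without both controls whose source name gives ZT 0, 58 probe sets passed, 54 of them among the 320.

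**Figure D1:**
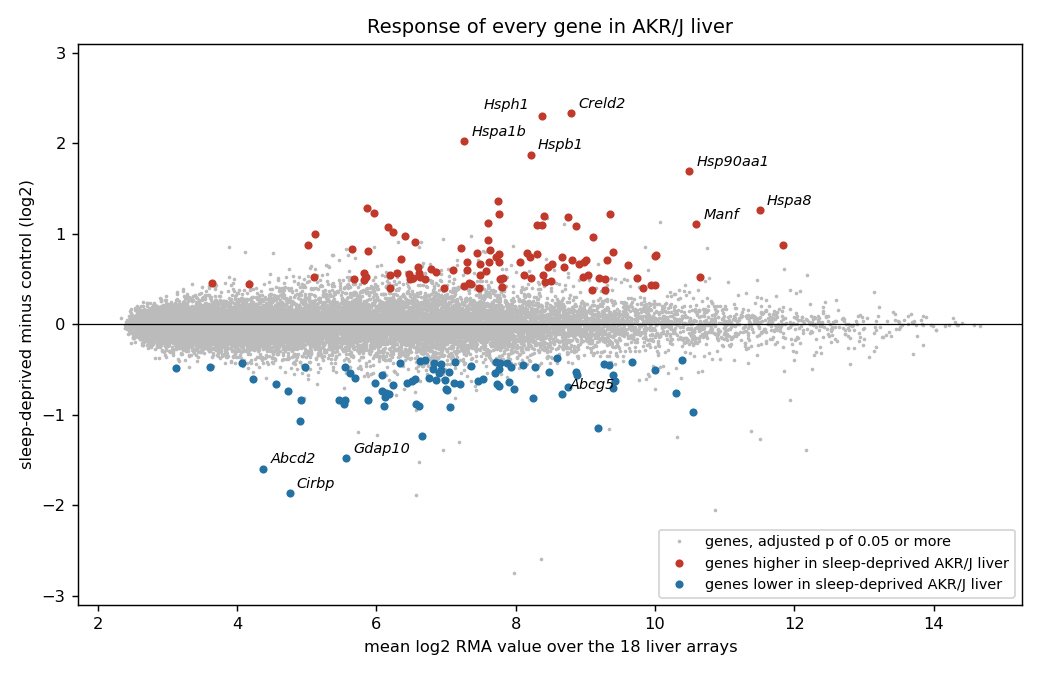
Change of each gene in AKR/J liver (sleep-deprived minus control, log2) against its mean log2 RMA value over the 18 liver arrays. Each point is a gene by its representative probe set; red points are the 103 genes higher and blue points the 84 genes lower in sleep-deprived liver at an adjusted p under 0.05, with Creld2 at 2.33 and Cirbp at -1.87 the farthest of these from 0.

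Of 22 ER chaperone genes measured, 10 rose and 0 fell in sleep-deprived AKR/J liver, against 0.566% and 0.462% of all genes. All 22 had a positive change, and the median was 0.41. Creld2, a disulfide-rich ER protein that is induced when unfolded protein accumulates there, had values of 10.12, 9.76 and 10.09 in sleep-deprived pools, against 7.62, 7.68 and 7.67 in control pools. Its means were 9.99 ± 0.20 in sleep-deprived liver and 7.66 ± 0.03 in control liver (SD, n = 3 each), a 5.04-fold rise (log2 2.33, SE 0.13, adjusted p = 1.75e-08). The 3 sleep-deprived pools were all more than 4-fold above every control pool.

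Manf, a small ER protein that is also secreted as a growth factor, was at 11.22, 11.17 and 11.49 in sleep-deprived pools, against 10.07, 10.20 and 10.28 in control pools. That is a 2.16-fold rise (log2 1.11, SE 0.14, adjusted p = 0.000246), and the groups did not overlap. Hspa5, the HSP70 of the ER, was at 12.29, 12.17 and 12.36 in sleep-deprived pools, against 11.35, 11.40 and 11.42 in control pools. Hspa5 rose 1.84-fold (log2 0.88, SE 0.10, adjusted p = 8.42e-05), from probes already bright in control liver. Syvn1, the ubiquitin ligase that marks misfolded ER proteins for degradation, was at 9.46, 8.74 and 9.17 in sleep-deprived pools, against 7.84, 8.13 and 8.09 in control pools. Its rise was 2.15-fold (log2 1.10, SE 0.24, adjusted p = 0.0341), with sleep-deprived pool 2 the lowest of its group. The call of Syvn1 was lost when any 1 of 5 arrays was left out (all but sleep-deprived pool 2, adjusted p up to 0.166), whereas Creld2, Manf and Hspa5 passed without each of the 6 arrays.

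The other 6 that rose also act in ER protein folding. They were Sdf2l1 (log2 0.75, adjusted p = 0.026), the HSP40 proteins Dnajb11 (0.71, 0.00163) and Dnajc3 (0.51, 0.0371), the exchange factor Hyou1 (0.66, 0.00952), the oxidase Ero1b (0.55, 0.0079) and the disulfide isomerase Pdia4 (0.48, 0.0129). Members that did not pass included Hsp90b1, the HSP90 of the ER (0.49, 0.0543), calreticulin (0.35, 0.0927), and the degradation factors Herpud1 (0.21, 0.657) and Edem1 (0.04, 0.961). The count of 10 was 6 without sleep-deprived pool 1 and 7 or 8 without each of the other 5 arrays. Without the controls whose source name gives ZT 0, all 10 stayed positive and 4 passed: Creld2, Manf, Hspa5 and Dnajb11.

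**Figure D2:**
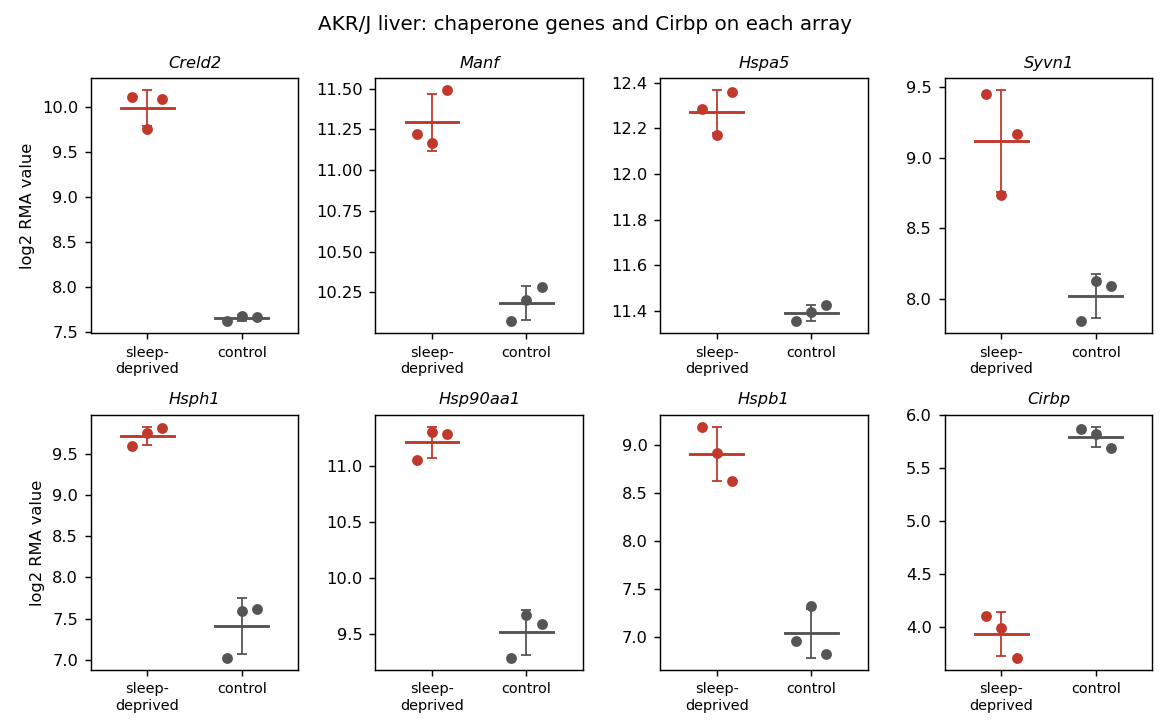
Log2 RMA values of ER chaperone genes (top row), cytosolic heat shock genes and Cirbp (bottom row) on each AKR/J liver array. Points are pools of 3 mice, lines the group mean and bars the SD (n = 3 each). Sleep-deprived pools (left) and control pools (right) do not overlap in any of the 8 panels. All 8 genes had passed the test, so this separation adds no support to it. The axes do not start at 0.

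The promoters of these genes were read because the ER stress element is the known site of ATF6 with NF-Y in this family. RefSeq windows from 250 bases before to 50 bases after the annotated start (GRCm38.p6, the C57BL/6J reference and not AKR/J sequence) were found for 8 of the 10 that rose. Hyou1 and Manf had no window. The motif was searched on both strands as CCAAT, the box bound by NF-Y, then any 9 bases and then CCACG. It stood in 5 of the 8 windows and in 37 of 27025 genes (0.137%). It stood in 0 of the 12 windows of cytosolic heat shock genes that rose. ER chaperone genes that did not pass were not counted apart, so the share does not set the genes that rose apart from their list. The 5 elements follow in the direction of the motif, with the fixed letters in capitals and the free bases in lower case.
Creld2: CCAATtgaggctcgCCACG
Hspa5: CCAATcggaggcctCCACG
Syvn1: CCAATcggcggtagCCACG
Dnajc3: CCAATcagcgccaaCCACG
Ero1b: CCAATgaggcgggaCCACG
The elements lie at chr15:88819520-88819538 (minus strand, 126 to 108 bases before the start of Creld2), chr2:34772025-34772043 (plus strand, 65 to 47 bases before the start of Hspa5) and chr19:6046532-6046550 (plus strand, 44 to 26 bases before the start of Syvn1). The remaining elements lie at chr14:118937827-118937845 (plus strand, 105 to 87 bases before the start of Dnajc3) and chr13:12565682-12565700 (minus strand, 201 to 183 bases before the start of Ero1b). A match describes letters and says nothing of binding in these samples.

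The windows of Creld2, the gene that rose most, and of Hspa5, the best known bearer of the element, are shown in full, 5′ to 3′ on the strand of the gene with the match in capitals. Both genes lie on the plus strand, Creld2 at chr15:88819396-88819695 and Hspa5 at chr2:34771840-34772139 of GRCm38.p6. The window of Hspa5 holds 1 match, and that of Creld2 holds 1 match on the opposite strand.
Creld2: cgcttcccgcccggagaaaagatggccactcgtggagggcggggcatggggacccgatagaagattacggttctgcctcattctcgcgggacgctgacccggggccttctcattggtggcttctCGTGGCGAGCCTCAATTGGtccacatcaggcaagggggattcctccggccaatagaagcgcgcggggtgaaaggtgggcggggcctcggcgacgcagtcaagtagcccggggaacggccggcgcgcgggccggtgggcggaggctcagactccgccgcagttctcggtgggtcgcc
Hspa5: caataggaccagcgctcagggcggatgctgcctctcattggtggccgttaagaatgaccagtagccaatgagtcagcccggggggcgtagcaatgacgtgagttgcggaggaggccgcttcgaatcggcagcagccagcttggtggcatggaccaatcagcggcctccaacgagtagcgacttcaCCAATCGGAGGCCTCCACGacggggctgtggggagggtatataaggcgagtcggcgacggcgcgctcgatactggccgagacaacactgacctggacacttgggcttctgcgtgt

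Of 15 regulators of the unfolded protein response, 0 passed in either direction, and the median change was 0.05. Xbp1, the transcription factor whose mRNA IRE1 splices, was at 11.37, 11.16 and 11.32 in sleep-deprived pools, against 11.03, 11.22 and 10.92 in control pools (log2 0.22, adjusted p = 0.582). Atf4, the factor translated when PERK is active, had a change of -0.35 (adjusted p = 0.0674), with sleep-deprived pools at 9.19, 9.19 and 9.14 and control pools at 9.49, 9.57 and 9.51. The groups of Atf4 did not overlap, with control the higher. Ddit3 (CHOP), a death-promoting target of Atf4, had a change of 0.40 (adjusted p = 0.161), and Trib3, a further target of that branch, had -0.61 (adjusted p = 0.261). The arrays measure mRNA level and hold no value for Xbp1 splicing or for cleavage of Atf6.

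Cytosolic heat shock genes formed the list with the most calls. Of 22 measured members 14 were higher and 0 lower, against 0.566% and 0.462% of all genes, and the median was 0.74. Hsph1, an HSP110 exchange factor for HSP70, had values of 9.59, 9.74 and 9.81 in sleep-deprived pools, against 7.02, 7.60 and 7.61 in control pools. It rose 4.93-fold (log2 2.30, SE 0.14, adjusted p = 4.51e-08), and control pool 1 was the lowest of the 6 arrays. Hspb1, a small heat shock protein that holds unfolding proteins, was at 9.18, 8.92 and 8.62 in sleep-deprived pools, against 6.96, 7.32 and 6.82 in control pools. Its rise was 3.66-fold (log2 1.87, SE 0.21, adjusted p = 0.00012). The inducible HSP90 gene Hsp90aa1 was at 11.05, 11.30 and 11.28 in sleep-deprived pools, against 9.29, 9.67 and 9.60 in control pools, a 3.23-fold rise (log2 1.69, SE 0.10, adjusted p = 2.58e-08). In each of these genes the lowest sleep-deprived pool lay above the highest control pool by more than 2-fold.

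Hspa8, the constitutive HSP70, was at 11.95, 11.99 and 12.02 in sleep-deprived pools, against 10.79, 10.63 and 10.75 in control pools, and rose 2.4-fold (log2 1.26, SE 0.08, adjusted p = 4.55e-08). The co-chaperones of HSP90 rose with it: Stip1, which links HSP70 to HSP90, by 1.37 (adjusted p = 6.96e-07), Chordc1 by 1.22 (6.96e-07), Cacybp by 0.79 (0.000236), Fkbp4 by 0.69 (0.00327) and the ATPase activator Ahsa1 by 0.66 (0.000266). Hspa4l (0.98), Hspb8 (0.80), Dnajb1 (0.69) and Dnaja1 (0.52) also passed. Outside the list, Dnajb2, an HSP40 gene, was at 8.11, 8.06 and 7.96 in sleep-deprived pools, against 6.56, 7.02 and 7.19 in control pools (log2 1.12, adjusted p = 0.000782).

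Hspa1b, the strictly inducible HSP70, was uneven among the sleep-deprived pools, with 7.12, 7.68 and 9.69 in sleep-deprived liver, against 5.83, 6.38 and 6.22 in control liver. Its change of 2.02 had an SE of 0.46 and an adjusted p of 0.0478, and sleep-deprived pool 3 was about 4-fold above pool 2. The call of this probe set was lost without sleep-deprived pool 2 or 3 or any control pool, with an adjusted p of up to 0.178. It was also lost without the DBA/2J liver array that carries muscle markers (0.0544). With all arrays kept, all 3 probe sets of Hspa1b were called higher. Hspa1a, its near-identical neighbour, was read at 2.83 to 3.04 in sleep-deprived pools and 2.82 to 2.88 in control pools, near the bottom of the scale, and RNA of these genes may hybridise to the probes of either. Members of the mitochondrial chaperonin did not pass, with changes of 0.12 for Hspd1 (adjusted p = 0.697) and 0.33 for Hspe1 (0.265). The count of 14 lay between 10 and 13 when 1 array was left out. Without the ZT 0 controls 8 of the 14 passed and all 14 stayed positive.

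The heat shock element was searched as GAA, any 2 bases, TTC, any 2 bases and GAA, on both strands of the same kind of window. It stood in 2 of the 12 windows of heat shock genes that rose (Hsph1 and Chordc1), in 0 of the 8 ER chaperone windows and in 179 of 27025 genes (0.662%). Hspa8 and Hsp90aa1 had no window, and heat shock genes that did not pass were not counted apart. The window of Hsph1, the heat shock gene that rose most, is given for chr5:149636287-149636586 of GRCm38.p6 on the minus strand, the strand of the gene, with the match in capitals 36 to 48 bases after the annotated start. The capitals read GAActTTCcaGAA on the opposite strand, with the free bases in lower case.
Hsph1: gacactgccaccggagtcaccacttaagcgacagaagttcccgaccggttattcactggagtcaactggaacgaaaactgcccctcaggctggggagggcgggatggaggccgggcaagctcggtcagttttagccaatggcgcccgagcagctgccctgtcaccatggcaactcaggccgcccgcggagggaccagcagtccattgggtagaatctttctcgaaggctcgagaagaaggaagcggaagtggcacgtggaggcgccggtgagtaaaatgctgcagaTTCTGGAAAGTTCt

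Cirbp, an RNA-binding protein whose mRNA in mice is known to fall as body temperature rises, was at 4.10, 3.98 and 3.70 in sleep-deprived pools, against 5.88, 5.83 and 5.69 in control pools. It fell by 1.87 on the log2 scale (SE 0.15, adjusted p = 6.96e-07), and every sleep-deprived pool was more than 2-fold below every control pool. The sleep-deprived values lie near the array medians of 4.05 to 4.13, in the dimmer range of these arrays. Among 26 SR and hnRNP splicing factor genes, a list that includes Cirbp, 2 rose and 2 fell, against 0.566% and 0.462% of all genes. The median was 0.02. Hnrnpc, which binds nascent transcripts, rose to 10.17, 10.41 and 10.24 in sleep-deprived pools, against 9.52, 9.50 and 9.55 in control pools (log2 0.75, adjusted p = 0.000257). Hnrnph1 rose by 0.47 (0.0246) and Hnrnpd, which binds AU-rich mRNA, fell by 0.49 (0.0356). The calls of Hnrnph1 and Hnrnpd were each lost without any 1 of 4 arrays, with adjusted p of up to 0.126 and 0.163, whereas Cirbp and Hnrnpc passed without each of the 6.

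Glucocorticoid-induced genes had 3 members higher and 0 lower of 19 measured, against 0.566% and 0.462% of all genes. The median was 0.26, and 15 of the 19 had a positive change. Tsc22d3 (GILZ), an anti-inflammatory target of the glucocorticoid receptor, was at 9.32, 9.56 and 9.52 in sleep-deprived pools, against 8.27, 8.54 and 8.68 in control pools (log2 0.97, adjusted p = 0.0124). Zbtb16, a further target, was at 6.16, 6.92 and 6.67 in sleep-deprived pools, against 5.51, 5.66 and 5.36 in control pools (log2 1.08, adjusted p = 0.0117). Angptl4, a secreted inhibitor of lipoprotein lipase that fasting and glucocorticoids raise, was at 10.28, 9.84 and 9.18 in sleep-deprived pools, against 8.31, 8.57 and 8.74 in control pools (log2 1.22, adjusted p = 0.013). In all 3 genes the groups did not overlap. Fkbp5, the feedback inhibitor of the receptor, was at 7.34, 7.75 and 7.81 in sleep-deprived pools, against 7.14, 7.02 and 6.89 in control pools, a change of 0.61 that did not pass (0.263). Per1 (0.27, adjusted p = 0.655), Sgk1 (0.31, 0.526) and the amino acid enzyme Tat (0.62, 0.224) did not pass either. The largest changes of the list in size were falls that did not pass. They were Lcn2 (-2.60, adjusted p = 0.585), Mt1 (-1.26, 0.563) and Mt2 (-1.25, 0.506). The count of 3 was 0 without sleep-deprived pool 2, 1 without control pool 1 and 0 without the ZT 0 controls.

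Of 24 immediate early genes, 1 rose, against 0.566% of all genes. Jun was at 5.84, 5.72 and 5.82 in sleep-deprived pools, against 5.28, 4.65 and 5.02 in control pools (log2 0.81, adjusted p = 0.0234), and this call was lost without any 1 of 5 arrays (all but control pool 1, adjusted p up to 0.135). Egr1 overlapped between the groups, with 8.77, 8.14 and 7.06 in sleep-deprived pools and 6.47, 7.28 and 7.79 in control pools. Myc, at 5.59, 5.38 and 5.24 in sleep-deprived pools and 6.58, 6.97 and 6.31 in control pools, had separate groups and a change of -1.22 that did not pass (adjusted p = 0.156).

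Among genes of fuel use, 2 of 21 PPAR-alpha fasting targets rose, Angptl4 and Acot1, against 0.566% of all genes. The median over the list was 0.06. Acot1, which splits long-chain acyl-CoA in the cytosol, was at 5.80, 6.24 and 5.69 in sleep-deprived pools, against 4.54, 4.74 and 4.74 in control pools (log2 1.23, adjusted p = 0.0079). The groups did not overlap. Fgf21, the fasting hormone of the liver, had a change of -0.39 (adjusted p = 0.609) and the rate-setting transporter of fatty acid oxidation Cpt1a had -0.32 (0.424). G0s2, an inhibitor of the lipase that breaks down stored fat, was at 9.34, 9.11 and 8.72 in sleep-deprived pools, against 7.77, 7.72 and 8.11 in control pools (log2 1.19, adjusted p = 0.0357). Its call was lost without any 1 of 5 arrays (all but sleep-deprived pool 3, adjusted p up to 0.164). The call of Angptl4 was lost without any 1 of 4 (sleep-deprived pools 1 and 2 and control pools 1 and 2, up to 0.0778), and that of Acot1 without sleep-deprived pool 2 (0.057).

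Of 22 fatty acid synthesis genes, 2 rose and 0 fell, against 0.566% and 0.462% of all genes, with a median of 0.17. Lpin1, a phosphatidate phosphatase of triglyceride synthesis and a co-activator in the fasted liver, was at 9.50, 9.24 and 9.18 in sleep-deprived pools, against 8.44, 8.17 and 8.05 in control pools (log2 1.09, adjusted p = 0.0079). The elongase Elovl6 rose by 0.63 (adjusted p = 0.0451), a call that was lost without any 1 of 5 arrays (all but sleep-deprived pool 2, up to 0.212). Srebf1, the factor that drives the pathway after feeding, had 9.57, 9.57 and 9.59 in sleep-deprived pools and 10.34, 10.18 and 10.36 in control pools, a change of -0.71 with separate groups that did not pass (adjusted p = 0.101). Of 17 genes of glycogen and glucose supply 1 rose, against 0.566% of all genes. The gene was Pfkfb3, which makes the activator of glycolysis fructose 2,6-bisphosphate. It was at 5.86, 5.26 and 5.72 in sleep-deprived pools, against 4.51, 4.56 and 3.90 in control pools (log2 1.29, adjusted p = 0.0169), and its call was lost without sleep-deprived pool 1 or 3 or control pool 3 (up to 0.1). Of 19 gluconeogenesis genes 0 passed, among them G6pc, the last enzyme of glucose release, at 10.21 to 11.41 in sleep-deprived pools and 9.57 to 10.11 in control pools (log2 0.85, adjusted p = 0.0867). Without sleep-deprived pool 3, 1 of the 19 passed. Pck1, the entry enzyme of that pathway, had a change of 0.37 (adjusted p = 0.342).

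The sterol exporters fell. Abcg5 and Abcg8, whose proteins form 1 transporter that moves cholesterol into bile, were the only 2 of 22 bile acid and sterol transport genes that passed. Over all genes, 0.462% were lower. Abcg5 was at 8.45, 8.36 and 8.35 in sleep-deprived pools, against 9.10, 9.17 and 9.20 in control pools, 1.7-fold lower (log2 -0.77, SE 0.11, adjusted p = 0.000782). Abcg8 was at 8.25, 8.09 and 7.84 in sleep-deprived pools, against 8.50, 8.64 and 8.45 in control pools, 1.39-fold lower (log2 -0.47, SE 0.11, adjusted p = 0.0441). In both genes the groups did not overlap. The list kept 1 of the 2 calls without any 1 of 5 arrays (all but sleep-deprived pool 1) and without the DBA/2J array with muscle markers, and 0 without the ZT 0 controls. Cyp7a1, the rate-limiting enzyme of bile acid synthesis, was at 9.44, 9.48 and 10.49 in sleep-deprived pools and 10.70, 10.13 and 10.30 in control pools, overlapping groups with a change of -0.57 (adjusted p = 0.448). Of 18 cholesterol synthesis genes 0 passed, with a median of -0.12.

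Abcd2 and Rdh9 also fell. Abcd2, a peroxisomal importer of very long fatty acids, was at 4.25, 3.82 and 4.32 in sleep-deprived pools, against 5.98, 5.13 and 6.07 in control pools (log2 -1.60, SE 0.25, adjusted p = 0.00307). The retinol dehydrogenase gene Rdh9 was at 7.95, 8.08 and 8.56 in sleep-deprived pools, against 9.25, 9.55 and 9.22 in control pools (log2 -1.14, SE 0.16, adjusted p = 0.000902). Among 25 conjugating enzyme genes 2 fell, against 0.462% of all genes. These were Ugt2b35, a glucuronosyltransferase, by 0.97 (adjusted p = 0.000792) and the sulfotransferase Sult1c2 by 0.84 (0.0147). Both had groups that did not overlap. Of 25 drug-metabolising cytochrome P450 genes 0 passed, and 2 passed without sleep-deprived pool 3.

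Gdap10 was at 4.37, 4.98 and 5.23 in sleep-deprived pools, against 6.79, 6.41 and 5.82 in control pools (log2 -1.48, adjusted p = 0.0109), and Wdr6 was at 5.52, 6.21 and 6.32 in sleep-deprived pools, against 7.18, 7.50 and 7.06 in control pools (log2 -1.23, 0.00155). The other largest falls were D630004K10Rik (-1.07), Niban2 (-0.91), the synaptotagmin gene Syt1 (-0.91), the PP2A subunit gene Ppp2r3a (-0.90), Nxpe2 (-0.88), the lysosomal sulfatase gene Arsg (-0.88), Carmil1 (-0.84) and 1810046K07Rik (-0.84). Without the ZT 0 controls 0 calls were left in the PPAR-alpha, fatty acid synthesis, glycogen, immediate early and conjugating enzyme lists. All 15 of the largest falls stayed negative without the ZT 0 controls and 5 of them passed, and all 15 of the largest rises stayed positive and 10 passed. Etfbkmt, a methyltransferase of the electron transfer flavoprotein, completes the 15 rises, at 9.22, 8.86 and 9.26 in sleep-deprived pools, against 7.55, 8.06 and 8.15 in control pools (log2 1.20, adjusted p = 0.000239). With 1 array left out, calls were lost for Sult1c2 (any 1 of 5 arrays, all but sleep-deprived pool 2, adjusted p up to 0.0717), Gdap10 (sleep-deprived pool 1, control pools 1 and 2, up to 0.0681) and Niban2 (sleep-deprived pool 2, control pools 1 and 2, up to 0.105). They were also lost for Arsg (sleep-deprived pool 2, control pool 2, up to 0.0641) and D630004K10Rik (sleep-deprived pool 1, control pool 2, up to 0.0617). Syt1 and Nxpe2 rest on 1 probe set each, since another probe set of the gene had a change of 0.066 and 0.21 that did not pass. Wdr6 and Arsg were called by 1 of 2 probe sets each, and Ppp2r3a by 1 of 3. Among genes named above, Pfkfb3, Angptl4, Jun and Hnrnph1 were likewise called by 1 of 2, and Elovl6 and Hnrnpd by 1 of 3.

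Acute-phase genes, which the liver makes when inflammation signals reach it, split the pools of both groups. Of 26 measured, 0 passed, and the median was -0.24. Lcn2, an iron-sequestering secreted protein, was at 5.61, 6.16 and 8.39 in sleep-deprived pools and 10.80, 10.76 and 6.39 in control pools, so that control pools 1 and 2 were more than 4-fold above the other 4 arrays and control pool 3 was not. Saa2, a serum amyloid, was at 8.36, 10.29 and 11.57 in sleep-deprived pools and 13.30, 13.17 and 9.90 in control pools, and the groups overlapped. Orm2 was at 5.24, 5.16 and 7.20 in sleep-deprived pools and 9.59, 9.47 and 6.79 in control pools, also overlapping. Socs3, the feedback inhibitor of interleukin-6 signalling, was at 4.77, 5.54 and 5.97 in sleep-deprived pools and 6.73, 7.43 and 6.68 in control pools, with separate groups, a change of -1.52 and an adjusted p of 0.183. Control pool 3, which shares the ZT 0 source name with pool 2, sided with the sleep-deprived pools in Lcn2, Saa2 and Orm2.

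Markers of liver endothelial cells were the only list of the 14 cell type lists with more than 1 call. Of 12 measured, 3 rose and 0 fell, against 0.566% and 0.462% of all genes, and the median was 0.36. Positive changes were held by 11 of the 12, against 8685 of all 18193 genes. The summed level of the list was 10.92 to 11.09 in sleep-deprived pools and 10.43 to 10.83 in control pools, without overlap. Sums of the neutrophil list did not overlap either, and those of the remaining lists did. Tie1 was the 1 endothelial member with a mean under 5. Clec4g, a lectin of sinusoidal endothelium, was at 9.10, 9.36 and 9.14 in sleep-deprived pools, against 8.88, 8.18 and 8.54 in control pools (log2 0.67, adjusted p = 0.0343). Of the 2 probe sets of Clec4g, 1 was called. Tek, the angiopoietin receptor, changed by 0.57 (0.0351) and Flt1, a VEGF receptor, by 0.52 (0.0207). Of the 3 calls, 1 was left without sleep-deprived pool 1 or 2, 0 without sleep-deprived pool 3, control pool 2 or control pool 3, and 0 without the ZT 0 controls. The part of these cells in the other results was not tested.

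**Figure D3:**
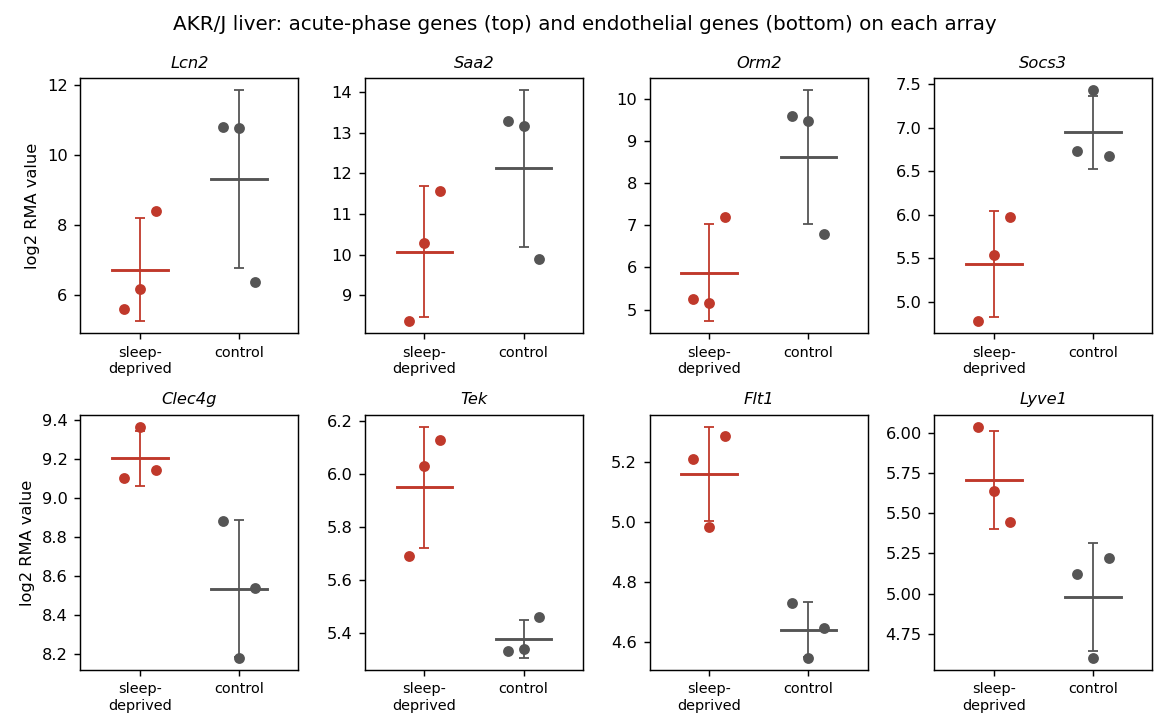
Log2 RMA values of 4 acute-phase genes (top row) and 4 endothelial genes (bottom row) on each AKR/J liver array, with group means and SD bars (n = 3 pools each), sleep-deprived left of control and axes not from 0. Lcn2, Saa2 and Orm2 are high in control pools 1 and 2 and lower in control pool 3, while the endothelial genes are higher in all sleep-deprived pools.

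Among the remaining cell types, Cdh1 of the periportal list fell by 0.72 (adjusted p = 0.0478), a call lost without any 1 of 5 arrays (all but sleep-deprived pool 3, up to 0.23), and the other 12 lists had 0 calls. The neutrophil list, 7 of whose 9 members had a mean under 5, summed to 7.64 to 7.70 in sleep-deprived pools. Its sums in control pools were 7.73 to 7.79, without overlap and with control the higher. Sums of Kupffer cell markers overlapped, at 11.16 to 11.64 in sleep-deprived pools and 11.08 to 11.70 in control pools. The lists of insulin and IGF signalling (22 genes, 1 call without sleep-deprived pool 1), amino acid breakdown (26), oxidative stress (19), interferon-stimulated (21), cell cycle (24) and proteasome genes (32) also had 0 calls. Of 18 circulating hormones and binding proteins, Angptl4 was the 1 that rose, against 0.566% of all genes.

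Clock genes were examined both as a response to lost sleep and because of the conflicting ZT of the controls. Of 21 measured, 0 passed, with a median of -0.10. Dbp, an output gene of the clock, was at 9.34, 9.70 and 9.88 in sleep-deprived pools and 10.23, 10.22 and 10.12 in control pools, separate groups with a change of -0.55 (SE 0.19, adjusted p = 0.291). Per2, a repressor of the clock, was at 5.46, 5.68 and 6.41 in sleep-deprived pools and 5.45, 5.45 and 5.36 in control pools (log2 0.43, adjusted p = 0.464), with sleep-deprived pool 3 the highest. Arntl (BMAL1), an activator, was at 5.73, 5.53 and 5.22 in sleep-deprived pools and 4.88, 5.22 and 5.23 in control pools (log2 0.39, adjusted p = 0.573), and the groups overlapped. The repressor gene Nr1d1 overlapped between groups (log2 -0.10, adjusted p = 0.925).

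The control pools whose source name gives ZT 0 were also set against control pool 1. Of 45037 probe sets 0 passed (0%), the smallest adjusted p was 0.611, and 1968 had an unadjusted p under 0.05. With 2 arrays against 1, this test has little power. Differences of the clock genes, ZT 0 minus ZT 6 source name, were -0.07 for Dbp (SE 0.30), -0.09 for Per1 (SE 0.25), -0.04 for Per2 (SE 0.29), 0.35 for Arntl (SE 0.30) and 0.27 for Nr1d1 (SE 0.23). The largest of the 21 in size was Nfil3 (0.52, SE 0.36). The genes of smallest p were Mpp7 (0.94) and H2-D1 (1.04) on the higher side and Vps13c (-0.73) and Sall1 (-0.71) on the lower side, with adjusted p of 0.611 to 0.746.

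**Figure D4:**
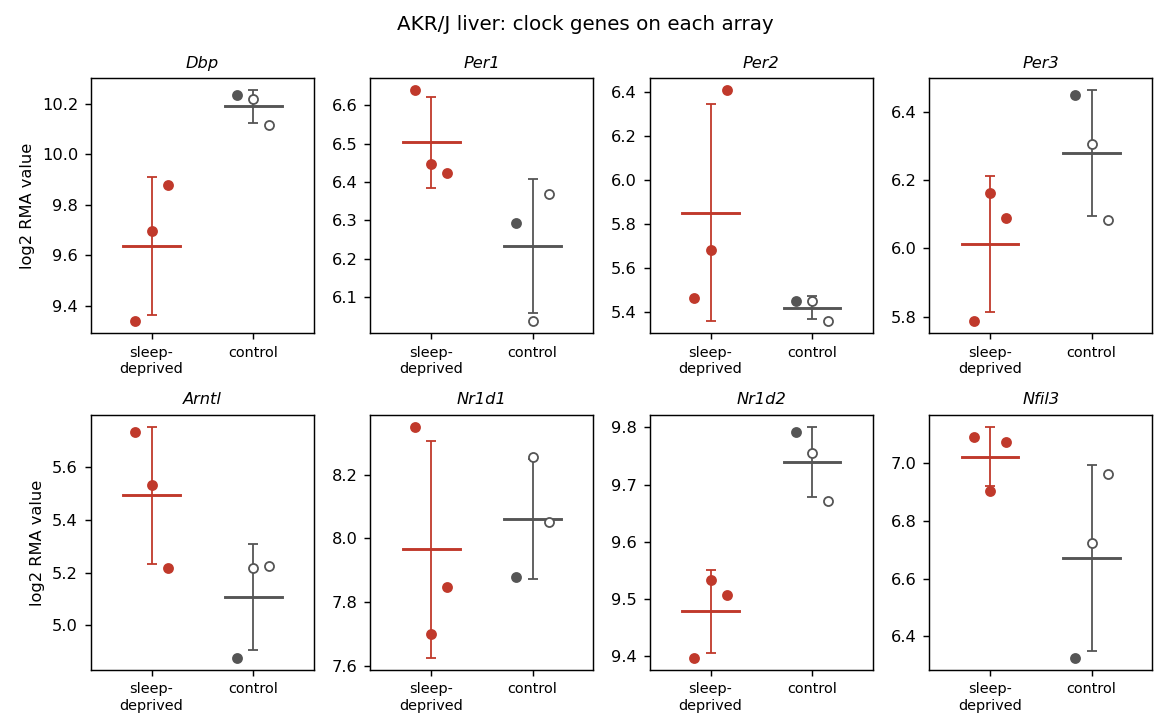
Log2 RMA values of 8 clock genes on each AKR/J liver array, with group means and SD bars (n = 3 pools each), sleep-deprived left of control and axes not from 0. Open circles are the control pools 2 and 3, whose source name gives ZT 0; for Dbp they lie at 10.22 and 10.12, beside control pool 1 at 10.23.

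Sleep deprivation was also measured in liver of the other strains, where 277 probe sets (0.615%) passed in C57BL/6J and 283 (0.628%) in DBA/2J. Of the AKR/J calls, 62 were also called in the same direction in C57BL/6J (19.4% of the AKR/J and 22.4% of the C57BL/6J calls), and 80 in DBA/2J (25% of the AKR/J and 28.3% of the DBA/2J calls). Of the 320, 297 had the same sign in C57BL/6J and 277 in DBA/2J. Over all probe sets, the changes in AKR/J correlated at 0.30 with those in C57BL/6J and at 0.23 with those in DBA/2J. The share of all probe sets with the same sign was not counted. Among genes, 103 were higher in AKR/J, against 120 (0.66%) in C57BL/6J and 99 (0.544%) in DBA/2J. The heat shock list had 14 members higher in AKR/J, 5 in C57BL/6J and 12 in DBA/2J, with medians of 0.74, 0.29 and 0.63. ER chaperones had 10 higher in AKR/J, against 2 in C57BL/6J and 1 in DBA/2J, with medians of 0.41, 0.08 and 0.03. Of the 10 that rose in AKR/J, 1 also passed in C57BL/6J and 0 in DBA/2J, and Herpud1, which passed in both of those strains, did not pass in AKR/J. The glucocorticoid list had 3 higher in AKR/J, 6 in C57BL/6J and 4 in DBA/2J, with medians of 0.26, 0.66 and 0.27.

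**Figure D5:**
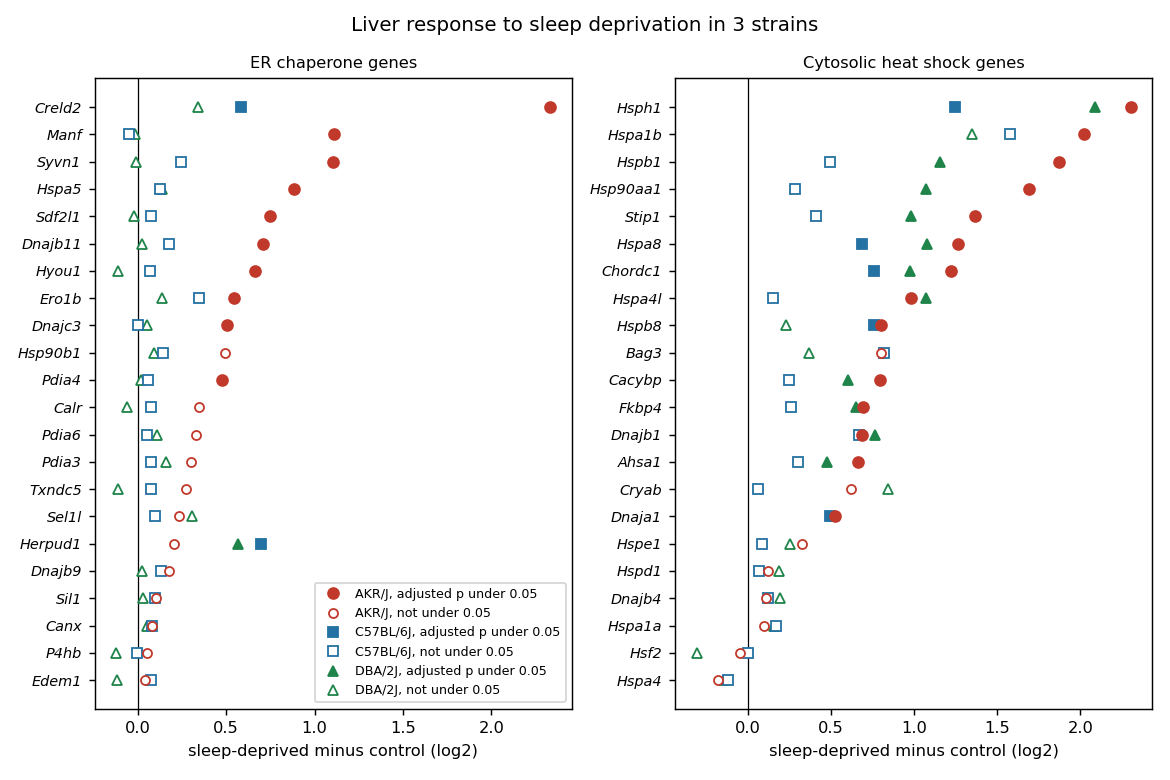
Change in sleep-deprived against control liver (log2) of each of the 22 ER chaperone genes (left) and 22 cytosolic heat shock genes (right) in AKR/J, C57BL/6J and DBA/2J. Filled symbols passed an adjusted p of 0.05 in that strain; AKR/J lies to the right of C57BL/6J in 20 of 22 ER genes and of DBA/2J in 20 of 22.

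The direct test of the difference between strains called few probe sets. The AKR/J response differed from that of C57BL/6J in 10 (0.0222%), from that of DBA/2J in 7 (0.0155%), and from the mean of both in 7 (0.0155%), all 7 of these higher in AKR/J. With trend and robust estimation the last count was 18, of which 10 were lower in AKR/J. It was 2 to 4 without control pool 1 or any 1 of the sleep-deprived pools, and against DBA/2J the count was 2 to 4 without any 1 of the 6 arrays. Without the ZT 0 controls the counts were 7 against C57BL/6J, 2 against DBA/2J and 3 against the mean of both. Creld2 passed in all 3 comparisons. It was at 10.12, 9.76 and 10.09 in sleep-deprived and 7.62, 7.68 and 7.67 in control AKR/J liver, at 9.52, 9.19 and 9.56 in sleep-deprived and 8.97, 8.79 and 8.76 in control C57BL/6J liver, and at 8.54, 8.59 and 8.61 in sleep-deprived and 8.53, 8.19 and 7.99 in control DBA/2J liver. AKR/J control pools were thus the lowest of the 6 liver groups and AKR/J sleep-deprived pools the highest. The AKR/J response exceeded that of C57BL/6J by 1.75 (SE 0.18, adjusted p = 0.000337) and that of DBA/2J by 1.99 (SE 0.18, adjusted p = 8.56e-05). It passed under each of the alternatives run for these differences.

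Manf passed in AKR/J and in neither other strain, with changes of 1.11 in AKR/J, -0.05 in C57BL/6J and -0.02 in DBA/2J. The difference was 1.16 from C57BL/6J (adjusted p = 0.0463), 1.13 from DBA/2J (0.0826, not passing) and 1.14 from their mean (0.0216). Hspa5 changed by 0.88 in AKR/J, 0.12 in C57BL/6J and 0.14 in DBA/2J, and passed against the mean of both (0.75, 0.0347). The call of Manf against the mean was lost without any 1 of 5 arrays (all but control pool 3, up to 0.106), its call against C57BL/6J without any 1 of the 6 (up to 0.181), and that of Hspa5 without any 1 of the 6 (up to 0.122). AKR/J control pools had Hspa5 at 11.35, 11.40 and 11.42, against 11.91, 11.69 and 11.61 in C57BL/6J and 11.93, 11.73 and 11.71 in DBA/2J control pools. Whether sequence differences between the strains lie under the probes was not examined.

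Hsp90aa1 and Stip1 of the HSP90 machinery also differed from C57BL/6J. Hsp90aa1 was at 11.05, 11.30 and 11.28 in sleep-deprived and 9.29, 9.67 and 9.60 in control AKR/J liver, and at 10.89, 10.93 and 10.78 in sleep-deprived and 10.56, 10.55 and 10.64 in control C57BL/6J liver. The response exceeded that of C57BL/6J by 1.41 (SE 0.14, adjusted p = 0.000337) and that of DBA/2J by 0.62 (0.253, not passing). Stip1 exceeded C57BL/6J by 0.96 (0.0298), a call lost without any 1 of 5 arrays (all but control pool 2, up to 0.109). Hsph1 (1.05 from C57BL/6J, 0.154) and Hspa8 (0.58, 0.154) did not pass. Against DBA/2J the calls besides Creld2 were Ifi47, an interferon-induced GTPase (1.44), the secreted phospholipase gene Pla2g7 (-1.19), Ppp2r3a (-1.19) and Rbm33 (-1.06), each at an adjusted p of 0.047. None of these 4 passed in more than 1 of the 6 fits that left out an AKR/J array (highest adjusted p 0.232, 0.18, 0.18 and 0.141). One DBA/2J sleep-deprived array held skeletal muscle markers at a summed level of 12.70, against 7.67 to 7.82 on the other 17 liver arrays. Without it 3 probe sets were called against DBA/2J in place of 7. Without DBA/2J control pool 1, the liver array of largest 3′ to 5′ beta-actin difference, the count was 2.

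AKR/J brain, whose control pools 2 and 3 carry the same conflict in ZT, had 135 probe sets called (0.3%), and 49 genes (0.269%) were higher there. Of the 320 liver calls, 32 were called in brain in the same direction, 29 higher and 3 lower, which is 10% of the liver and 23.7% of the brain calls. Creld2 changed by 2.33 in liver and 1.29 in brain, and Manf by 1.11 in liver and 1.24 in brain. For Hspa5 the changes were 0.88 in liver and 1.37 in brain. Cirbp fell in both, with -1.87 in liver and -1.40 in brain, and the HSP90 co-chaperone Chordc1 changed by 1.22 in liver and 0.83 in brain. ER chaperones had 10 of 22 higher in liver and 9 in brain, at a median of 0.41 in each tissue, and 6 of the 10 were called in both. Xbp1 passed in brain (1.08, adjusted p = 0.000478) and not in liver (0.22, 0.582), a difference of -0.86 (adjusted p = 0.0268) that was lost without sleep-deprived pool 2, control pool 1 or control pool 2 of the liver (up to 0.117), without the ZT 0 controls and with each array centred on its median.

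The difference between the tissues was called for 65 probe sets (0.144%), 34 higher and 31 lower in the liver response, and for 36 without sleep-deprived pool 2 of the liver. It was called for 12 without the ZT 0 controls of both tissues and for 363 with arrays weighted by their quality. Of 23 called genes named or listed here, 16 lost the call without these controls, and Hsp90aa1, Hsph1, Stip1 and Syt1 kept it without them and without each single array. Hsp90aa1 changed by 1.69 in liver and 0.17 in brain (difference 1.52, SE 0.14, adjusted p = 2.73e-07), from control levels of 9.29, 9.67 and 9.60 in liver and 11.63, 11.66 and 11.77 in brain, tissues whose arrays have different medians. Hsph1 differed by 1.67 (1.67e-06), Stip1 by 1.03 (0.00143), Hspa8 by 0.89 (0.000944) and Tedc2 by 0.90 (0.00176). On the lower side stood the neuronal activity genes Arc (-0.17 in liver, 1.13 in brain) and Egr2 (-0.09 in liver, 1.30 in brain). Pglyrp1 (-0.17 in liver, 1.20 in brain) and the kinase gene Camk1g (-0.14 in liver, 0.52 in brain) were there too. Their liver probe sets lay between 2.80 and 4.58, on a scale from 2.12 to 14.91. Arc and Egr2 had AKR/J liver means below the liver array medians of 4.05 to 4.13. Camk1g had means above them, 4.38 in sleep-deprived and 4.52 in control pools. Ugt2b35 fell in liver (-0.97) and changed by -0.10 in brain, a difference of -0.87 (adjusted p = 0.00778).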

How the data were processed

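RNA of brain and liver from 3 inbred strains was hybridised as biotin-labelled cRNA to 36 Affymetrix arrays, and every array took 1 pool of 3 mice, per the labels' protocols. The authors deposited log2 RMA values, named RMA in the submitters' processing notes; software, version and array design file are not given in the sources used here. Array medians of the deposited log2 values were 4.05 to 4.13 in liver and 4.73 to 4.86 in brain. Whether the tissues were normalised apart is not given, and the cause of this difference was not tested. The arrays hold no read depth, so their number limits the precision.

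Of 45101 probe sets, 64 controls were left out and 45037 tested. Platform annotation gave 1 symbol to 34945, several to 932 and none to 9160; 34741 of these symbols were matched to RefSeq by gene ID. For each gene the probe set of highest mean over the 18 liver arrays stood for it. R 4.3.3 and limma 3.58.1 (lmFit, eBayes, two-sided) fitted the 6 liver groups for the liver effects and strain differences. The brain effect came from the brain groups alone, and the difference between tissues from all 12 groups. For the comparison of controls by source name, the AKR/J liver controls were split by that label. Benjamini-Hochberg adjustment ran over all 45037 with a threshold of 0.05, and every adjusted p comes from these fits. The fit was tested on simulated data. In all, 16 alternatives were run besides other probe sets of a gene, 1 of them chosen after seeing the data. Members, gene lists and tests were chosen with earlier results of these data known. Named genes were the 15 largest rises and falls, up to 4 members of each list, all clock genes, up to 5 genes a direction of each difference, up to 6 shared with brain and a fixed set; further list members are named by role. Marker sums add unlogged values before taking log2. Replicate numbers did not pair the AKR/J arrays (correlation of deviations -0.03, -0.06 and -0.12). Promoters are RefSeq windows of GRCm38.p6. P-values and SEs rest on the spread between pools over all groups of a fit, including the other strains. They need not follow the SDs of the AKR/J pools alone.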

Additional observations from a re-analysis of the deposited data

Results flagged for a closer look

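The genes given here are those, among the named genes and the gene lists, whose response differed between strains or tissues by a direct test. The change in AKR/J liver exceeded that in C57BL/6J liver for Creld2 by 1.75, Hsp90aa1 by 1.41, Manf by 1.16 and Stip1 by 0.96, all on the log2 scale. For Gm7969 the difference was -0.94, with an AKR/J change of -0.23 and a C57BL/6J change of 0.71 at probe values under 3 in AKR/J. Against DBA/2J liver the differences were 1.99 for Creld2, 1.44 for Ifi47, -1.06 for Rbm33, -1.19 for Pla2g7 and -1.19 for Ppp2r3a. Ifi47 changed by 0.29 in AKR/J and by -1.15 in DBA/2J, and Ppp2r3a by -0.90 in AKR/J and 0.29 in DBA/2J. Against the mean of both strains they were 1.87 for Creld2, 1.14 for Manf, 1.01 for Hsp90aa1 and 0.75 for Hspa5.

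Between AKR/J liver and AKR/J brain, the liver response was the higher for Hsph1 (1.67), Hsp90aa1 (1.52), Etfbkmt (1.22), Lpin1 (1.13), Creld2 (1.04), Stip1 (1.03), Dnajb2 (1.02), Tek (0.93), Tedc2 (0.90) and Hspa8 (0.89). It was the lower for Egr2 (-1.39), Pglyrp1 (-1.37), Arc (-1.30), Rdh9 (-0.99), Nxpe2 (-0.99), 1810046K07Rik (-0.88), Ugt2b35 (-0.87), Nr4a1 (-0.90), Xbp1 (-0.86), Syt1 (-0.82), Pdia6 (-0.55), Atf4 (-0.51) and Camk1g (-0.66). Adjusted p in limma ran from 2.73e-07 for Hsp90aa1 to 0.0331 for Pdia6 over these 23 genes, which are part of 38 called, 19 higher and 19 lower. Of the 23, 16 did not pass without the ZT 0 controls of both tissues. Tek, an endothelial gene, changed by 0.57 in liver and by -0.36 in brain. Lpin1 changed by 1.09 in liver and by -0.04 in brain.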

How the results depend on the processing

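The AKR/J liver count of 320 probe sets was 149 to 289 with 1 array left out, 58 without the controls whose source name gives ZT 0 and 182 from the 6 AKR/J arrays alone. It stayed within 1.5 times of 320 in the other settings, including the replicate block, where 320 were called and 288 were shared; the block changed no count of AKR/J calls by more than that except against DBA/2J. Against C57BL/6J, 10 became 5 among probe sets with a liver mean of at least 5 and 17 with trend and robust estimation, and 14 without the DBA/2J array with muscle markers. Against DBA/2J, 7 became 2 to 4 with 1 array left out. It was 2 without the ZT 0 controls, with the replicate block, with each array centred on its median and without DBA/2J control 1. It was 3 with quantile normalization and without the DBA/2J array with muscle markers, 4 with the filter on dim probe sets and with arrayWeights, and 13 with trend and robust estimation. Against the mean of both strains, 7 became 2 to 7 with 1 array left out, 3 without the ZT 0 controls, 18 with trend and robust estimation and 4 without DBA/2J control 1. Between liver and brain, 65 became 36 to 75 with 1 array left out, 12 without the ZT 0 controls and 363 with arrayWeights. The comparison of controls by source name called 0 in every setting run. Against the AKR/J liver effect, another probe set of Syt1 gave 0.066 and another of Nxpe2 gave 0.21, opposite in sign to the reported one. The cause of these shifts was not tested. Of the differences recomputed for named and listed genes, 3847 kept their sign and side of the threshold, 80 that did not pass changed sign without passing, 295 lost the call, 38 gained it and the 2 above reversed. Of the counts of called genes in lists, 507 stayed within 1.5 times and 85 did not. Dim probe sets, with signal near the array floor, limit what can be called for genes such as Arc and Egr2 in liver.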

Other observations

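Further genes rose in sleep-deprived AKR/J liver outside the lists, and those named here were chosen after their values were seen. Mlec, a sugar-binding ER protein, rose by 0.94 (limma adjusted p = 0.000694), with 0.18 in C57BL/6J and 0.12 in DBA/2J liver. The collagen chaperone gene Serpinh1 (HSP47) rose by 0.91 (0.000662) and P4ha1, a collagen prolyl hydroxylase subunit, by 0.83 (0.0275). Slc5a3, an inositol transporter that osmotic stress is known to raise, rose by 1.00 (0.00125), with 0.90 in C57BL/6J, 1.04 in DBA/2J and 0.77 in AKR/J brain. Gpr182 (0.61, 0.0164) and Fgd5 (0.50, 0.0246), both known from endothelial cells, were also higher.

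Falls outside the lists, likewise chosen after the values were seen, included Slc40a1 (ferroportin), the iron exporter, by 0.76 (0.00307), the angiotensin receptor gene Agtr1a by 0.56 (0.00586), Ugdh, which makes the substrate of glucuronidation, by 0.50 (0.0291) and the chemokine gene Cxcl12 by 0.45 (0.0168). Of the 84 genes that fell, 73 had the same sign in C57BL/6J, 70 in DBA/2J and 59 in AKR/J brain. Of the 103 that rose, 100 had the same sign in C57BL/6J, 92 in DBA/2J and 84 in AKR/J brain. The share of all genes with the same sign was not counted. Over all probe sets, the correlation with the AKR/J liver changes was 0.30 in C57BL/6J, 0.23 in DBA/2J and 0.12 in AKR/J brain.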
